A study of Mus musculus with 4 samples.

Results

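Circular RNAs (circRNAs) were compared between 2 parts of the infarct core of mouse brain, one close to the frontal lobe (frontal core) and one close to the occipital lobe (occipital core). The members are the circRNAs with 10 or more counts over these 2 libraries, 3780 of the 23980 in the count table and of the 21202 with a count in either core. They held 74.4% of the circRNA counts of the frontal core and 73.2% of those of the occipital core, and 3738 of them were assigned to 1889 host genes. Of the members, 3759 were detected in the occipital core and 3779 in the frontal core, so 21 were at 0 in the first and 1 in the second.

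RNA sequencing was carried out on mouse brain tissue after removal of ribosomal RNA. Both core libraries, and a penumbra library used here for reference, were made from mice with a permanent occlusion of the middle cerebral artery (MCAO) of 3 h, in which an intraluminal filament closes the artery that supplies most of the lateral cortex and the striatum. For each of these 3 libraries the RNA of 6 mice was mixed before the library was made. The reference from sham mice is cortex at the positions of core and penumbra, and the sources used here give neither strain, sex or age of the mice nor how many were sham-operated. Each group is 1 pooled library, so no value has a replicate error. Position in the infarct and every other difference between the pools cannot be told apart, and in such bulk tissue fewer cells of a type cannot be told apart from less RNA per cell.

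A circRNA forms when the spliceosome joins the end of a downstream exon back to the start of an upstream exon, the back-splice junction. The closed molecule has no free ends for exonucleases and is long-lived. Neurons are rich in circRNAs, many of them from genes of the synapse. A single gene can give several circles that share an exon end and differ in the other.

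Junction sequences of circles on which the results turn are printed 5′ to 3′ from GENCODE M21 transcripts on GRCm38. The 15 bases in capitals are the last of the circle, the end of its downstream exon, and the 15 bases in lower case are its first, the start of its upstream exon. Coding circles called higher in the frontal core (Cfap54, Exoc6, Rngtt) come first, then Eprs, which was called lower, then 2 circles of Dennd1b, a host whose balance differed between the cores. Both Dennd1b circles have the same capitals, so they share 1 exon end.
Cfap54 exons 57 to 66: GATACAGACTTGGAAgacacaccatggcca
Exoc6 exons 2 to 18: TTTACCCATTTGCCTatctgtgtatgatga
Rngtt exons 12 to 13: AATGGGAGGAGAAGGcttctggaaggaaat
Eprs exons 11 to 15: AACAAAGACAGTAAGggatgacccacggtt
Dennd1b exons 6 to 9: AGCAAATTAAGCACTttacttgccatggtt
Dennd1b exons 4 to 9: AGCAAATTAAGCACTgaagttctgcagagc

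The junction with the largest ratio among those called higher joins the 2 ends of a whole small nucleolar RNA gene, Snora61. Its 130 bases (chr4:132310240-132310369, plus strand, 57.7% GC) are printed because the gene is a single exon, so the junction joins both ends of the whole gene.
Snora61: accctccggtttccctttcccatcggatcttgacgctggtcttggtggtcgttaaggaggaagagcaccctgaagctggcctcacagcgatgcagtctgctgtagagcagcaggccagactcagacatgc

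Depth differed: the frontal core had 121393 circRNA counts and the occipital core 83090, with 96349 for the penumbra and 106558 for sham. Values are counts, or CPM, which divide a count by the sum of all circRNA counts of its library, and a single count is worth 8.24 CPM in the frontal core and 12.04 CPM in the occipital core. A run of 4 counts always goes from the frontal core to the occipital core, then penumbra, then sham. A ratio is the CPM in the frontal core over that in the occipital core, with its 95% exact conditional interval in square brackets. Intervals cover counting error only, as no molecular identifiers are stated that mark which reads are PCR copies of 1 molecule.

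Of the 6 most abundant circles, 5 did not differ between the cores past the test's threshold. The exception was Ssbp2 exons 2 to 4, with a ratio of 1.27 [1.14–1.42] (adjusted p = 0.00898, Fisher's exact test). The most abundant, a junction of Tulp4 (chr17:6137211-6139156), had 1204, 792, 855 and 985 counts, a ratio of 1.04 [0.951–1.14]. Gigyf2 exons 4 to 8 (chr1:87364104-87380008), from a regulator of translation, had 864, 589, 737 and 887 counts and a ratio of 1.00 [0.903–1.12]. Fat3 exon 2, from a giant cadherin, had a ratio of 0.934 [0.831–1.05]. Slc8a1 exon 2, from the sodium-calcium exchanger, had 0.973 [0.860–1.10], and Rims1 (chr1:22346293-22393948), from the presynaptic active zone, 0.869 [0.766–0.985]. With the scaling factors of TMM, which move every log2 ratio by -0.07, the ratios of Tulp4 and Gigyf2 fell below 1 (0.993 and 0.959).

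Over all 3780 members the median log2 ratio was 0.06 and 2051 of them (54.3%) had a ratio above 1. With TMM factors the median was -0.01. Just inside the count minimum, the 323 circles with 10 counts had a median of -0.02, and just outside it the 430 circles with 9 counts had 0.35. With 11 counts the median was 0.19 and with 8 counts 0.11. Counts this small allow only a few values of the ratio, so such medians move in steps. The 255 members with 100 or more counts had ratios between 0.471 and 2.05. Their ratios varied by more than counting error, by an amount equal to a variation of 14.2% [12.6–16.1] in each library. For the other pairs of libraries this was 9.15% to 16.2%, with the occipital core and penumbra the closest pair and the occipital core and sham the widest. A difference of 2-fold or more in size alone was seen for 560 members higher (14.8% of those tested) and 409 lower (10.8%) in the frontal core. Of these, 2 higher and 1 lower had 100 or more counts over both cores, and the rest had fewer, where counting error is wide.

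**Figure D1:**
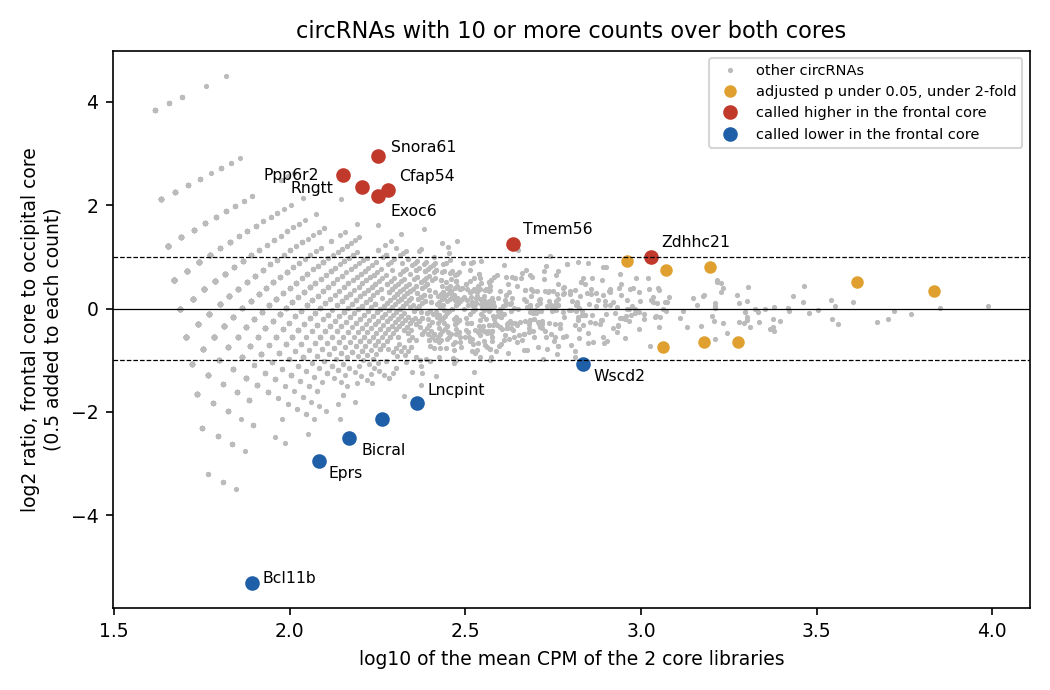
Each point is 1 of the 3780 circRNAs, with the log10 of its mean CPM in the 2 core libraries on the x axis and the log2 ratio of the frontal core to the occipital core (0.5 added to each count) on the y axis. The dashed lines mark 2-fold. Red and blue points are the 7 circles called higher and the 6 called lower, and orange points the 8 with an adjusted p under 0.05 and a difference under 2-fold, which lie among the more abundant circles.

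A circle was called where its adjusted p from Fisher's exact test was under 0.05 and its ratio was 2-fold or more. The test is two-sided, adjusted by Benjamini-Hochberg over all 3780, and compares these 2 libraries, not the conditions. It called 7 circles higher in the frontal core (0.185% of those tested) and 6 lower (0.159%), 13 in all (0.344%). With TMM factors the split was 5 higher and 12 lower. edgeR's exact test allows for variation between libraries. At an assumed coefficient of variation of 0.2 it called 0 (188 at an unadjusted p under 0.05). At the estimated common dispersion it also called 0 (180 at an unadjusted p under 0.05). That dispersion was estimated from the 2 cores treated as a single group. It therefore takes in any difference between them, and its 0 calls cannot speak to one. Fisher's exact test gave 446 at an unadjusted p under 0.05. Because the occipital core is shallower, circles with 10 counts in all can be called only when every count is in the occipital core, and a circle with 20 counts is called higher only when all 20 are in the frontal core.

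Among the circles called higher, Snora61 had 39, 3, 1 and 17 counts. The frontal core and sham were high and the occipital core and penumbra low. The ratio was 8.90 [2.83–45.01] (adjusted p = 0.00204, Fisher's exact test). Snora61 is an H/ACA small nucleolar RNA, of the class that guides pseudouridylation of other RNAs, and lies within Snhg12 on the same strand. A count at such a junction does not by itself show a spliced circle.

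The other 3 members from small nucleolar RNA genes were also higher in the frontal core, with fewer counts and no call. Snord118 (chr11:69073437-69073545), whose RNA takes part in ribosomal RNA processing, had 19, 3, 0 and 7 counts, a ratio of 4.34 [1.28–22.9] (adjusted p = 0.211, Fisher's exact test). Snora24 (chr3:123507937-123508066) had 12, 0, 0 and 5 counts and Snora34 (chr15:98519716-98519853) 11, 0, 0 and 2. Both reached the count minimum through the frontal core alone, so it had to be the higher of the cores for them. In the penumbra, which the minimum did not use, the 4 junctions had 0 or 1 counts, and in sham 2 to 17. The 1 member from a small Cajal body RNA gene, Gm25492, had 8, 4, 0 and 2 counts. These genes were singled out after their values were seen. The 33 junctions at small RNA genes in the table, members or not, summed to 141, 42, 48 and 82 counts, of which the 5 members held 89, 10, 1 and 33. The other 28, each under the count minimum, had 52, 32, 47 and 49 counts, or 428, 385, 488 and 460 CPM, and were highest in the penumbra.

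Zdhhc21 exons 2 to 6 (chr4:82835446-82854115), from a palmitoyltransferase that attaches fatty acids to proteins, was the most abundant circle called higher. It had 173, 59, 83 and 139 counts, or 1425, 710, 862 and 1304 CPM. The frontal core and sham were again high and the occipital core and penumbra low. The ratio of 2.01 [1.49–2.75] (adjusted p = 0.00204, Fisher's exact test) sits at the 2-fold line, and with TMM factors it was 1.92. Tmem56 exons 4 to 8 (chr3:121228310-121235764) had 74, 21, 41 and 63 counts and a ratio of 2.41 [1.47–4.12] (adjusted p = 0.0388, Fisher's exact test; 0.0552 with TMM factors).

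The remaining 4 circles called higher were rare in the occipital core, with 3 to 5 counts each. Cfap54 exons 57 to 66 (chr10:92815881-92878612), from a protein of the ciliary axoneme, had 39, 5, 19 and 16 counts and a ratio of 5.34 [2.10–17.4] (adjusted p = 0.0157, Fisher's exact test). The frontal core was the highest library and the occipital core the lowest. Exoc6 exons 2 to 18 (chr19:37570383-37609105), from a subunit of the exocyst that tethers secretory vesicles, had 36, 5, 20 and 26 counts and a ratio of 4.93 [1.93–16.1] (adjusted p = 0.0243, Fisher's exact test). Here the occipital core alone was low. Ppp6r2 exons 2 to 3 (chr15:89242160-89246340), both untranslated, from a regulatory subunit of protein phosphatase 6, had 30, 3, 4 and 18 counts and a ratio of 6.84 [2.13–35.1]. Rngtt exons 12 to 13 (chr4:33379369-33404253), from the mRNA capping enzyme, had 33, 4, 6 and 20 counts and a ratio of 5.65 [2.01–21.9]. In both of these the penumbra lay near the occipital core, and sham nearer to the frontal core.

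Of the circles called lower in the frontal core, Wscd2 exons 2 to 3 (chr5:113550423-113558463, 57.8% GC) was the most abundant. It had 53, 77, 67 and 70 counts, and the frontal core was the lowest of the 4 libraries at 437 CPM against 927 CPM in the occipital core. The ratio was 0.471 [0.326–0.677] (adjusted p = 0.0106, Fisher's exact test). Eprs exons 11 to 15 (chr1:185386246-185397267), from the tRNA synthetase for glutamate and proline, had 3, 18, 9 and 5 counts and a ratio of 0.114 [0.0215–0.391] (adjusted p = 0.0157, Fisher's exact test).

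Lncpint (chr6:31139729-31197851), from a long noncoding RNA gene, had 12, 30, 24 and 17 counts and a ratio of 0.274 [0.128–0.551]. A junction of Bicral (chr17:46858436-46858698), a gene for a subunit of a BAF chromatin remodeller, had 5, 21, 11 and 9 counts and a ratio of 0.163 [0.0480–0.444]. Both were highest in the occipital core and lowest in the frontal core. Lncpint has no spliced sequence in the annotation used, and the Bicral junction and the next circle have only 1 end on an exon boundary.

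A junction of Bcl11b, also called lower (chr12:107989465-107989827), had 0, 13, 10 and 6 counts, at least 6.33-fold lower in the frontal core with 3 counts in place of 0 (interval limit 4.45; adjusted p = 0.00622, Fisher's exact test). Bcl11b encodes a transcription factor of deep-layer cortical and striatal neurons. A second junction of the same exon 2 ends 3 bases away, at 107989830, and had 24, 18, 9 and 14 counts. Summed over both, a step chosen after the values were seen, Bcl11b had 24, 31, 19 and 20 counts and a ratio of 0.530 [0.298–0.933], under the 2-fold rule. The frontal core had every count at 1 junction and the occipital core divided its counts over both.

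**Figure D2:**
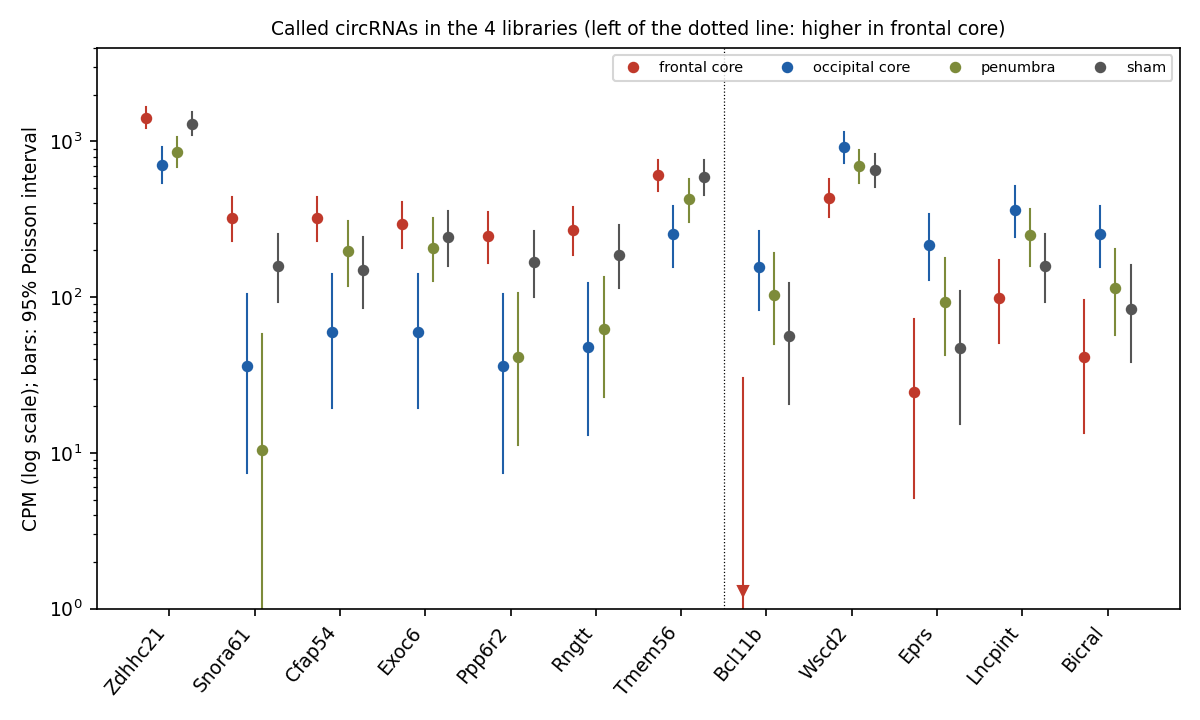
CPM on a log axis of 12 called circles in the 4 libraries (1 point a library, with its 95% Poisson interval). The triangle at the foot of the Bcl11b column is a count of 0. Left of the dotted line sham lies closer on the log scale to the frontal core than to the occipital core for 7 of 7 circles, and right of it the penumbra lies closer to the occipital core for each circle plotted.

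The penumbra and sham entered neither the choice of circles nor the tests. Nearness is read on the log2 scale. For the circles called higher, sham lay nearer to the frontal core in 7 of 7 and the penumbra nearer to the frontal core in 3 and to the occipital core in 4. For those called lower, the penumbra lay nearer to the occipital core in 6 of 6, and sham nearer to the frontal core in 4 and to the occipital core in 2. The penumbra was outside the range of both cores for Snora61 alone, where it was below both. Circles called for the distance between the cores are extreme in at least 1 of them, so an intermediate level in another library carries no separate weight.

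Another 8 circles had an adjusted p under 0.05 and a difference under 2-fold, 5 higher and 3 lower, which brings those under the threshold to 21 (0.556%). Higher were the abundant circles Ssbp2 exons 2 to 4 (chr13:91524585-91564694; 925, 500, 762 and 885 counts; ratio 1.27 [1.14–1.42]) and Zfp532 exons 7 to 8 (588, 283, 363 and 442 counts; 1.42 [1.23–1.65]). Crebrf exons 2 to 4 (chr17:26736789-26743131), from a regulator of the stress-linked factor CREB3, had 242, 95, 109 and 146 counts, a ratio of 1.74 [1.37–2.24]. Pcmtd1 exon 2 (chr1:7120194-7120615) had 145, 52, 56 and 102 counts, a ratio of 1.91 [1.38–2.67], and Dennd1b exons 6 to 9 a ratio of 1.69 [1.28–2.25]. The frontal core was the highest of the 4 libraries for all of these but Ssbp2.

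Lower were Fmn1 exon 2 (chr2:113363836-113365829), from a formin that nucleates actin, Stx6 exons 2 to 7 (chr1:155173986-155197435), from a SNARE of the trans-Golgi network, and Mapk4 exon 2. Fmn1 had 178, 192, 152 and 113 counts, a ratio of 0.635 [0.515–0.782] (adjusted p = 0.00823, Fisher's exact test). The occipital core was the highest and sham the lowest for Fmn1. Stx6 had 143, 153, 130 and 184 counts, a ratio of 0.640 [0.506–0.809], with both the occipital core and sham high. Mapk4 had 105, 120, 125 and 111 counts, a ratio of 0.599 [0.457–0.785], and the frontal core was the lowest.

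The ratio between the cores followed the GC content of the spliced circle, which could be computed for 3356 members (88.8%). In the quintile of lowest GC (30.6% to 43.4%) the median log2 ratio was 0.32 [0.24–0.37] and 68.2% of circles were higher in the frontal core. In the following quintiles the median was 0.16, 0.06 and -0.05. In the quintile of highest GC (52.3% to 70.1%) it was -0.21 [-0.31 to -0.12] and 40.0% were higher. Members with 30 or more counts gave medians of 0.25 in the lowest and -0.29 in the highest quintile.

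The same contrast shows in the makeup of each library. Circles of the lowest GC quintile took 20.6% of all counts of the frontal core and 20.6% of those of sham, but 17.3% for the occipital core and 18.4% for the penumbra. Circles of the highest GC quintile took 17.7% for the frontal core, 18.2% for sham, 21.2% for the occipital core and 20.7% for the penumbra. In both quintiles the penumbra lay between the occipital core and sham. Spearman's rho of the log2 ratio of the frontal core to the occipital core with GC content was -0.215 over the 3356 members and -0.324 over the 1074 with 30 or more counts. Across the 238 circles with 100 or more counts, it was -0.503, with -0.366 for the frontal core against penumbra (245 circles) and -0.008 for the frontal core against sham (268 circles). It was 0.308 for the occipital core against penumbra (203 circles), 0.452 for the occipital core against sham (220 circles) and 0.381 for penumbra against sham (229 circles). These comparisons share libraries, and the circles of 1 comparison share both library depths. Spliced length gave -0.161 and the number of exons 0.180 in the 238 circles.

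**Figure D3:**
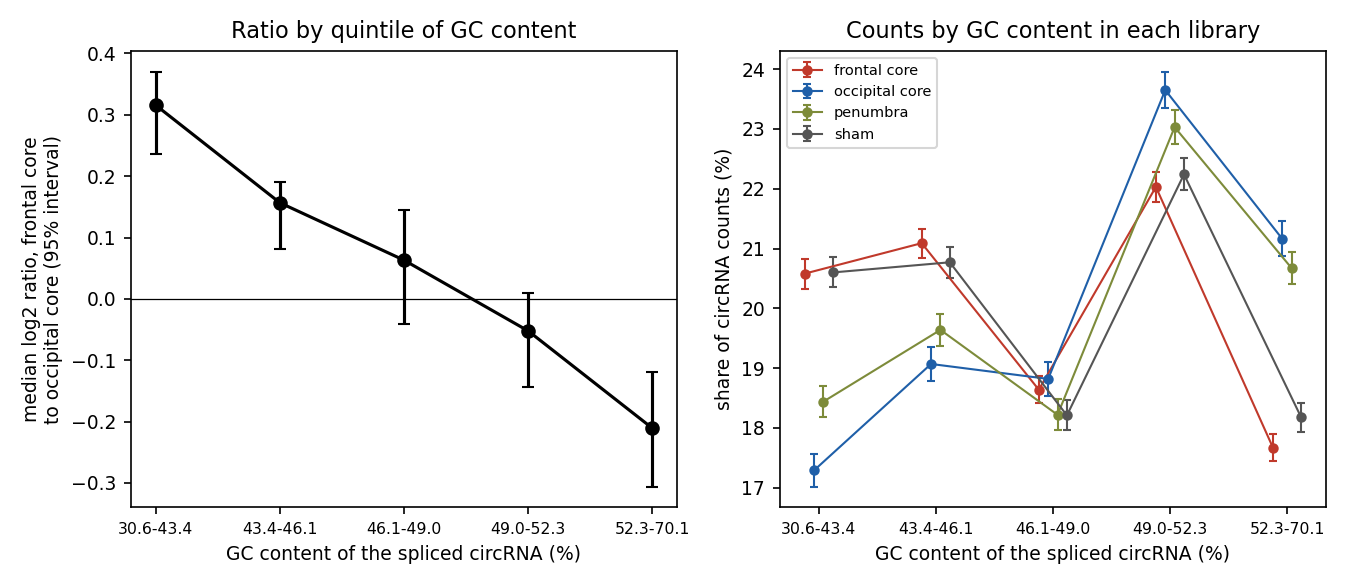
Left, the median log2 ratio of the frontal core to the occipital core (y axis, with a 95% interval) in quintiles of the spliced GC content in percent (x axis), which falls from 0.32 to -0.21. Right, the share in percent of each library's circRNA counts that each quintile holds, with a 95% interval. The frontal core and sham lie together above the occipital core and penumbra in the quintiles of lowest GC and below them in the quintile of highest GC.

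Of the 7 circles called higher, 5 lie in the lowest GC quintile, 1 (Zdhhc21) in the second and 1 (Snora61) in the highest. Their median GC content was 41.7%, against 47.4% over all members. Of the circles called lower, Eprs lies in the third quintile, at 46.6%, and Wscd2 in the highest. With the trend of the log2 ratio over GC removed, 1 circle was called higher and 5 lower. Snora61 then had a ratio of 11.5 (adjusted p = 0.000102, exact binomial test), and Eprs had a ratio of 0.111. Wscd2 moved to 0.611 (adjusted p = 0.244) and Zdhhc21 to 1.82 (adjusted p = 0.0248, exact binomial test). Cfap54 kept a ratio of 4.68 (adjusted p = 0.0549, exact binomial test), Ppp6r2 one of 6.10 (0.0954), Rngtt 4.95 (0.101), Exoc6 4.30 (0.101) and Tmem56 2.11 (0.145). For Bcl11b, Lncpint and Bicral no GC value could be computed, and their ratios were left as they are. With 1 library a side, a difference that follows GC content and one that follows position in the infarct cannot be told apart.

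Summed over all circles of a gene, 40 of 2511 hosts with 10 or more counts had an adjusted p under 0.05 (1.59%, Fisher's exact test), 20 of them higher (0.796%) and 20 lower (0.796%). Of these, 6 were called higher in the frontal core by 2-fold or more (0.239%) and 11 lower (0.438%), and 23 differed by less. A host stands out by its sum, so the number of its circles on the same side follows in part from that. Such numbers, given below for some hosts, carry no separate weight. Exoc6, the exocyst gene, had 58, 8, 36 and 46 counts over its circles, a ratio of 4.96 [2.36–12.04] (adjusted p = 0.000645, Fisher's exact test), and 8 of its 9 circles detected in either core were higher in the frontal core. The occipital core alone was low. With the GC trend removed the ratio was 4.16 (adjusted p = 0.00971, exact binomial test). Without the circle of exons 2 to 18 the other Exoc6 circles had 22 and 3 counts, a ratio of 5.02, too few for a call (adjusted p = 0.192, Fisher's exact test).

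Rttn, from a protein of centriole assembly, had 34, 4, 17 and 20 counts, a ratio of 5.82 [2.08–22.6], and 6 of its 6 circles were higher in the frontal core. These circles had few counts, 13 and 4 in the frontal and occipital core for the most abundant and 6 and 0 for the next. Iqgap2, a scaffold at the actin cortex, had 36, 5, 22 and 11 counts, a ratio of 4.93 [1.93–16.1], with 4 of 4 circles higher. The occipital core was the lowest library for both. Tbc1d5, a GTPase-activating protein for Rab GTPases of endosomes, had 63, 16, 40 and 44 counts, a ratio of 2.70 [1.54–4.999], with 12 of 15 circles higher. None of the circles of Rttn, Iqgap2 or Tbc1d5 was called by itself. Tmem56 and Snora61 were called through the circles given above. Without its most abundant circle, Rttn was still called, with 21 and 0 counts in the frontal and occipital core (adjusted p = 0.00987, Fisher's exact test). Iqgap2 then had 16 and 3 counts, a ratio of 3.65 (adjusted p = 0.359), and Tbc1d5 46 and 12, a ratio of 2.62 (adjusted p = 0.135, Fisher's exact test). With the GC trend removed Exoc6, Iqgap2 and Snora61 were still called. Rttn then had a ratio of 5.13 (adjusted p = 0.0557), Tbc1d5 2.44 (0.0572) and Tmem56 1.91 (0.134, exact binomial test), so that Rttn and Tbc1d5 lost the call at a similar ratio.

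Among the hosts called lower, Bicral had 17, 37, 30 and 19 counts, a ratio of 0.315 [0.166–0.573]. Extl3, a glycosyltransferase of heparan sulfate synthesis, had 18, 38, 33 and 30 counts, a ratio of 0.324 [0.174–0.582]. The frontal core was the lowest library for both, and the occipital core the highest. Odf2, of the centriole appendages, had 9, 25, 16 and 15 counts, and 0 of its 6 circles were higher in the frontal core. Cdk7, the kinase of the general transcription factor TFIIH, had 4, 17, 8 and 11 counts, a ratio of 0.161 [0.0394–0.494]. Uck2, a uridine-cytidine kinase, had 12, 28, 19 and 17 counts, and Eprs 9, 24, 10 and 6. For the remaining 5 hosts called lower the sums were 1 to 5 counts in the frontal core and 11 to 18 in the occipital core. With the GC trend removed, 3 hosts were called lower, Cdk7 and Eprs among them. The 9 that lost the call had ratios of 0.0608 to 0.389 (adjusted p = 0.0557 to 0.172, exact binomial test), against 0.0622 to 0.324 before. This setting changes the test and also the p-values of other hosts, over which each is adjusted. Which of these a lost call comes from was not tested. For 1 of the 9, with no GC value, the ratio stayed at 0.147. Its adjusted p went from 0.048 (Fisher's exact test) to 0.0572 (exact binomial test). Leaving out each host's most abundant circle left 2 hosts called lower, neither of them among these 11. Several of the 11 could then not be tested, as their other circles held under 10 counts (Cdk7 1 and 8) or they had none. Those still tested, Bicral, Extl3, Odf2, Uck2 and Eprs, had ratios of 0.513, 0.432, 0.114, 0.205 and 0.6845 (adjusted p = 0.0821 to 0.923, Fisher's exact test).

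The smallest adjusted p over all hosts belonged to one under the 2-fold line, Sel1l3, which is named here after its values were seen. It had 115, 152, 156 and 118 counts, a ratio of 0.518 [0.403–0.664] (adjusted p = 0.000229, Fisher's exact test). The frontal core and sham were low and the occipital core and penumbra high, and 1 of its 12 circles was higher in the frontal core. With the GC trend removed the ratio was 0.558 (adjusted p = 0.00184, exact binomial test). Stk3, a kinase of the Hippo pathway (165, 66, 84 and 120 counts; 1.71 [1.28–2.31]), and Rngtt (131, 49, 56 and 78 counts; 1.83 [1.31–2.60]) were on the other side of 1. Without their most abundant circles these ratios were 2.40 and 2.25 (both adjusted p = 0.00987, Fisher's exact test), and with the GC trend removed neither host passed (adjusted p = 0.337 and 0.293, exact binomial test).

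**Figure D4:**
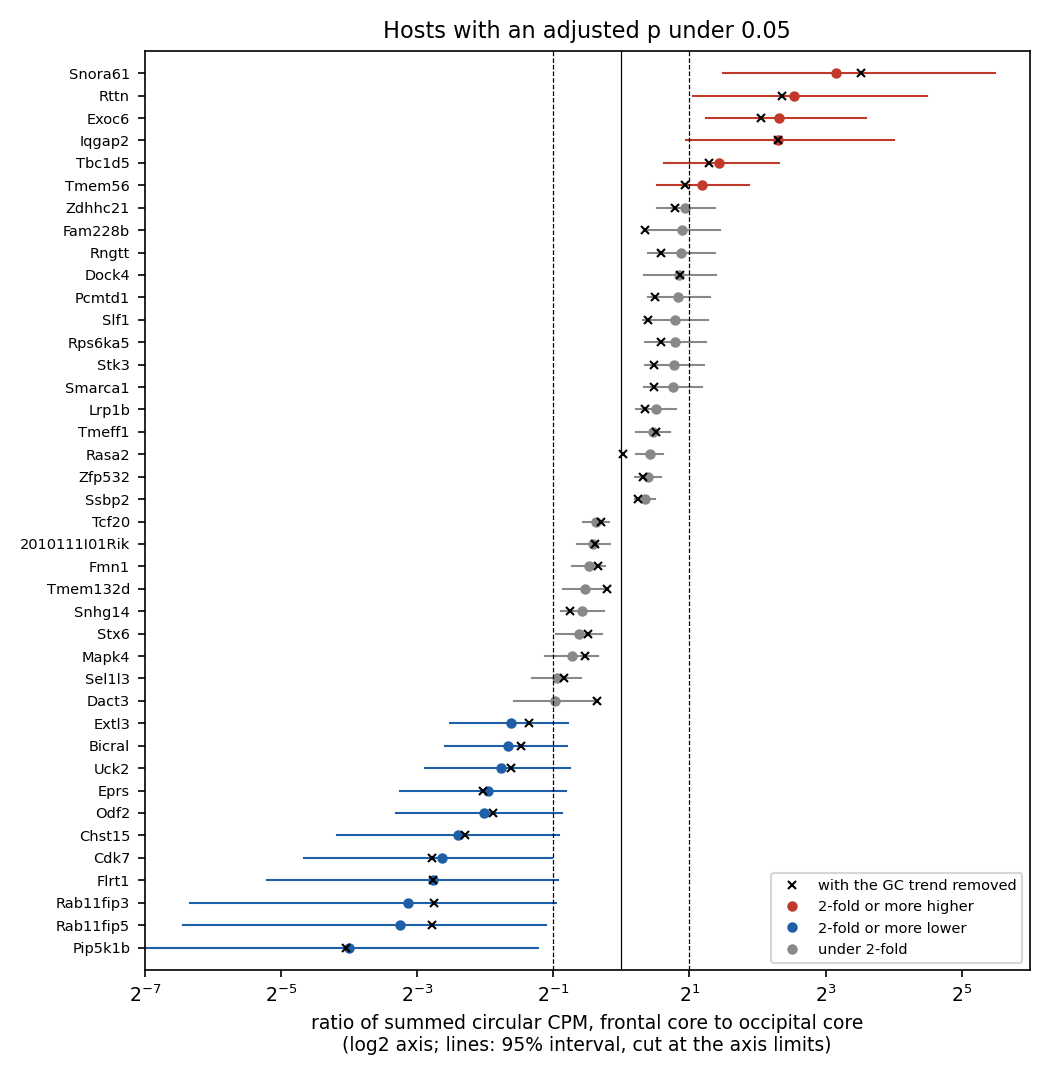
Ratio of the frontal core to the occipital core (x axis, log2 scale, with its 95% interval) of the 40 hosts with an adjusted p under 0.05, 1 a row. Dashed lines mark 2-fold and crosses the ratio with the GC trend removed. Red points are the 6 hosts called higher, blue the 11 called lower and grey the 23 under 2-fold. For Rasa2 the cross lies at 1.02.

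The balance between circles of the same host does not depend on the library totals. It was tested for 3046 members with 10 or more other circular counts in their host, and 5 took a larger share of their host in the frontal core (0.164%) and 1 a smaller share (0.0328%), at an odds ratio of 2 or more. Mycbp2, a ubiquitin ligase of axon development, gave the circle of exons 9 to 17 (chr14:103275789-103291362) with 105, 38, 53 and 65 counts. The circle of exons 9 to 15, which has the same start, had 31, 31, 28 and 44. The longer circle made up 61.8% of the host's 170 circular counts in the frontal core and 32.8% of 116 in the occipital core (adjusted p = 0.00411, Fisher's exact test), with 47.3% in penumbra and 43.1% in sham. The frontal core was thus the highest and the occipital core the lowest of the 4.

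Crebrf exons 2 to 4 made up 45.4%, 29.3%, 34.1% and 35.1% of its host's counts in the 4 libraries (adjusted p = 0.00411, Fisher's exact test). Its sister without exon 2, exons 3 to 4 (chr17:26739543-26743131), had 224, 179, 173 and 200 counts, a ratio of 0.857 [0.701–1.05]. The sister was thus slightly lower in the frontal core, within counting error, while the circle with exon 2 was higher. For Dennd1b, an exchange factor for Rab35, exons 6 to 9 (chr1:139053346-139062971; 180, 73, 126 and 139 counts) made up 27.5%, 15.9%, 22.8% and 24.3% in the 4 libraries (adjusted p = 0.0045, Fisher's exact test). The occipital core stood below the other three. Dennd1b exons 4 to 9 (chr1:139040000-139062971), with the same end, had 188, 156, 171 and 158 counts.

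For Dpp8, a dipeptidyl peptidase, exons 2 to 16 (chr9:65034875-65066496) had 14, 1, 4 and 5 counts, 14 of the host's 28 in the frontal core and 1 of 29 (3.45%) in the occipital core (adjusted p = 0.0353, Fisher's exact test). Exons 2 to 13 with the same start had 6, 11, 6 and 5. Bcl11b exon 2 at 107989830 was the fifth, with 24 of 24 counts in the frontal core and 18 of 32 (56.3%) in the occipital core, beside the junction 3 bases away. The GC content of these 5 circles differed from that of the rest of the host by -2.66 to -0.53 percentage points. The -2.66 belongs to Bcl11b, where the junction 3 bases away has no GC value and could not enter the rest of the host. The 2 Bcl11b junctions held 24 of the host's 24 counts in the frontal core and 31 of 32 in the occipital core, so almost no counts were left for this comparison.

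**Figure D5:**
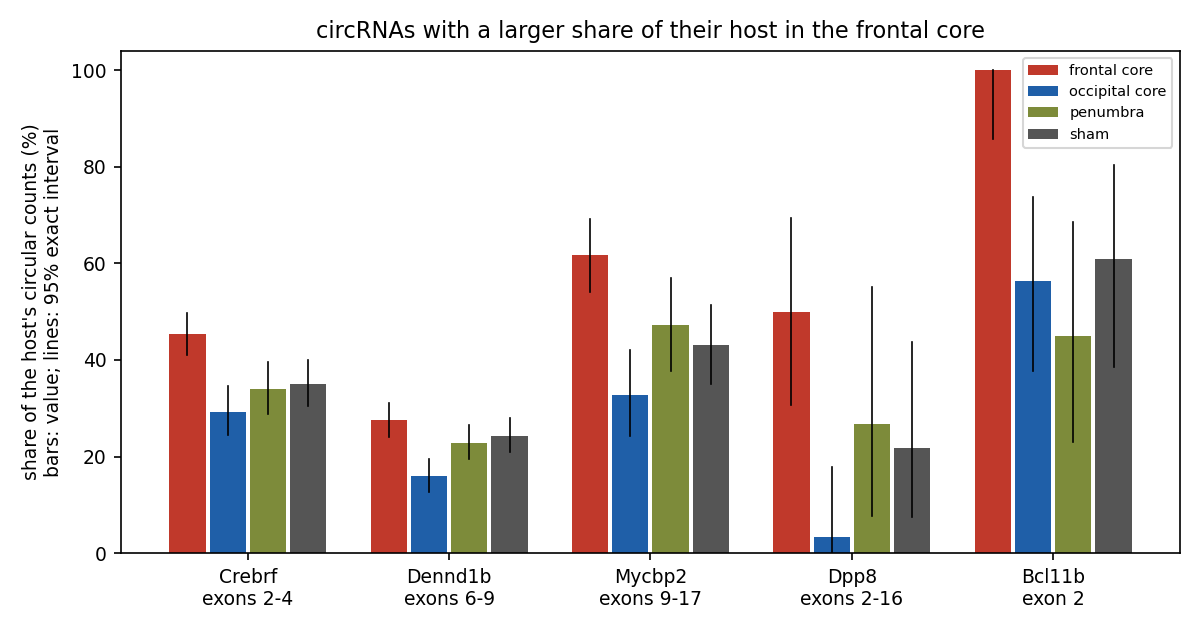
Share in percent of a host's circular counts (y axis) held by the 5 circles whose share was larger in the frontal core, in the 4 libraries (bars, with 95% exact intervals as lines). The frontal core is the highest and the occipital core the lowest for Crebrf, Dennd1b, Mycbp2 and Dpp8, and the frontal core is at the top of the axis for Bcl11b.

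At 0.344% of all members called, lists of this size hold few calls or none, so the counts of calls are not a result about a list. Of 113 members from genes of the presynaptic active zone and vesicle release, 0 were called higher and 1 lower, with a median log2 ratio of -0.06 against 0.06 over all members. Their hosts together, non-members included, had 4136 counts in the frontal core and 3143 in the occipital core, a ratio of 0.901 [0.860–0.944]. Postsynaptic scaffold genes had 90 members, 0 calls and a median of -0.09, which was 0.09 with the GC trend removed. Homer1 exons 2 to 5, of that list, had 233, 168, 189 and 223 counts. The 36 members of glutamate and GABA receptors and the 65 of voltage-gated and leak ion channels had 0 calls and medians of 0.20 and 0.26, with summed ratios of 1.15 [1.04–1.28] and 1.10 [1.03–1.18]. With TMM factors these medians were 0.13 and 0.20, and the channels had 1 call. Kcnt2 exons 4 to 13, from a sodium-activated potassium channel, had 201, 114, 129 and 188 counts.

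The other lists of function also had 0 calls each, beside 0.344% over all members. Medians were 0.21 for calcium pumps, exchangers and release channels (23 members), 0.28 for the actin and membrane skeleton (48), 0.06 for chromatin and Mediator genes (73) and -0.04 for ubiquitin ligases and deubiquitinases (64). The median of chromatin and Mediator genes fell just below 0 with TMM factors. Medians were 0.28 for stress and death kinases (51), 0.08 for autophagy and lysosomal trafficking (27) and 0.08 for RNA helicases and splicing factors (34). Circles of hosts known from brain and stroke studies (85 members) had a median of -0.08. Hipk3 exon 2, of that list, had 217, 190, 216 and 202 counts, a ratio of 0.782 [0.640–0.955] (adjusted p = 0.262, Fisher's exact test). The summed ratios of these 8 lists lay between 0.961 and 1.02, close to 1 in each case. Their intervals included 1 except for the hosts of brain and stroke studies (0.961 [0.931–0.992]).

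Lists of marker genes were read for the regions and cell types that the 2 cores could hold in different amounts, which circRNAs can show only through their hosts. Upper-layer cortical neuron genes had 9 members with 0 calls and a median of -0.16, which was -0.07 with the GC trend removed. Their summed counts were 138, 136, 169 and 127, or 1137, 1637, 1754 and 1192 CPM, a ratio of 0.695 [0.544–0.887]. The frontal core and sham were thus low and the occipital core and penumbra high. The median GC content of the 9 members was 52.5%, against 47.4% over all members, and the summed ratio was not corrected for GC content. The host Rasgrf2, a Ras exchange factor, had 22, 36, 43 and 34 counts (adjusted p = 0.0654, Fisher's exact test) and Cux1, a homeobox factor, 36, 42, 28 and 25 (adjusted p = 0.247). Of the 12 genes 6 were at 0 in both cores, Lhx2 and Calb1 among them. Deep-layer genes (6 members, 9 of 14 genes at 0, Fezf2 and Tbr1 among them) had a median of 0.15 and a summed ratio of 1.08 [0.844–1.39].

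Striatal neuron genes had 15 members, 0 called higher and 1 lower (Bcl11b, also a cortical gene), a median of 0.41 and a summed ratio of 0.909 [0.780–1.06]. The defining markers Drd1, Drd2, Adora2a, Ppp1r1b, Tac1 and Penk were at 0 in both cores, and the list rests on 11 of its 22 genes. Rostral patterning genes (9 members from 2 hosts, 6 of 10 genes at 0) had 0 calls, a median of 0.41 and a summed ratio of 1.012 [0.814–1.26]. Foxp1, 1 of the 2 hosts, is also in the striatal list, so the 2 medians of 0.41 are not separate observations. Caudal patterning genes (6 members, 6 of 12 genes at 0) had 0 calls, a median of -0.19 and a summed ratio of 0.895 [0.672–1.19]. Hippocampal (8 members, median 0.30) and interneuron genes (2 members, median 1.75) had 0 calls and summed ratios of 1.09 [0.914–1.31] and 1.23 [0.819–1.87]. Thalamic genes had 0 members and summed counts of 16 and 10. For all of these the interval of the summed ratio includes 1.

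Markers of other cell types were mostly at 0. Of 15 microglial genes 14 were at 0 in both cores and the list had 1 member, Mertk, with 7, 4, 3 and 7 counts. Of 18 endothelial and mural genes 14 were at 0 and none had a member, with 10 and 8 counts in all. Astrocyte genes (4 members, median -0.13, 11 of 20 genes at 0, Gfap and Aqp4 among them) had a summed ratio of 1.24 [0.907–1.71]. Oligodendrocyte lineage genes (6 members, median -0.08, 11 of 24 at 0, Mog and Sox10 among them) had 0.923 [0.749–1.14]. None of these 4 lists had a call. Ependymal and choroid genes had 7 members from 2 hosts, a median of 0.74 and 1 called higher (Cfap54). Of the 15 genes 12 were at 0, Foxj1 and Ttr among them, and the summed ratio was 1.22 [0.970–1.54]. Over all its circles Cfap54 was not called, with 180, 94, 97 and 120 counts and a ratio of 1.31 (adjusted p = 0.323, Fisher's exact test). The part of cell composition in the called circles was not tested.

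The junction type and first exon of the called circles are given beside those of all members, with no test. A spliced sequence was available for 7 of the 7 circles called higher and 3 of the 6 called lower, against 88.8% of members. Both ends lay on exon boundaries of 1 gene for 7 of the 7 circles called higher and 4 of the 6 called lower, against 90.2% of all members. Circles called higher started at exon 2 in 3 of 7 cases, against 32.5% of members with a spliced sequence. Junctions with 1 end on a boundary made up 6.91% of the counts in the frontal core and 7.03% in the occipital core, and those in no gene 0.824% and 0.761%.

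The occipital core held more different circles at equal depth. On drawing 83090 counts, 14717 circles would be expected in the frontal core, against the 15921 detected in the occipital core. For the penumbra and sham this was 15649 and 14864, so the frontal core again lay near sham and the penumbra near the occipital core. The difference was in circles with a single count. At the full depth of each library these made up 40.7% of the circles detected in the occipital core and 28.2% in the frontal core. The frontal core had 121393 counts against 83090, so these 2 shares do not compare the cores at equal depth. Circles with 2 or more counts at equal depth numbered 9466 and 9447. At full depth 11330 circles were detected in both cores, 5281 in the frontal core alone, of which 2089 had 1 count and 21 had 10 or more, and 4591 in the occipital core alone, of which 2675 had 1 count and 1 had 10 or more.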

How the data were processed

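The authors deposited read counts per circRNA, as whole numbers without normalization; no source used here gives the circRNA caller or annotation. TopHat2 2.0.10, Bowtie and mm9 are listed per the submitters' processing notes, but 89.1% of starts lie on exon starts of GRCm38 in GENCODE M21 (0.192% when moved by 1 base). The deposited FPKM table was not used. A host was assigned by exon boundaries, and the strand is that of the host, so genes that overlap on opposite strands cannot be told apart. Exons are numbered along the transcript with the most exons that holds both ends.

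Counts were scaled to library totals. Fisher's exact tests were two-sided with Benjamini-Hochberg adjustment, and the GC trend was removed by lowess (fraction 0.4, fitted to circles with 30 or more counts). A log2 ratio adds 0.5 to each count. A count of 0 was set to a floor of 3 counts (24.7 CPM in the frontal core, 36.1 in the occipital core) for a fold. Python 3.11.15, scipy 1.17.1, statsmodels 0.14.6, R 4.3.3, edgeR 4.0.16 and DESeq2 1.42.0 were used, and scripts were tested on simulated data. Members, 12 lists of function and 13 of markers were chosen with earlier results of these data known. Named were up to 15 called circles a direction, the 6 most abundant, up to 6 called hosts a direction, up to 8 circles with a called share and their sisters, and called or most abundant circles of each list. One circle called lower is not reported here.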

Additional observations from a re-analysis of the deposited data

How the results depend on the processing

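With 1 library a group no replicate could be left out and no p-value measures spread between animals. No paired analysis was possible because each group is 1 pooled library. The GC content of the genomic span was not tried, since no genome of this build was used here. The variation between the cores was 11.9% with the GC trend removed.

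The 7 circles called higher became 2 with no count filter, 12 at 30 or more counts, 12 with no fold threshold, 1 with the GC trend removed and 0 in both edgeR tests. The 6 called lower became 12 with TMM factors and 12 with DESeq2 size factors, 1 with no count filter and 0 in both edgeR tests. All 6 remained among the 12, and at 30 or more counts 3 remained, since Bcl11b, Bicral and Eprs have fewer. For hosts, edgeR's exact test called 0 in each direction (93 at an unadjusted p under 0.05), removing the GC trend left 3 higher and 3 lower, and leaving out the most abundant circle gave 4 higher, of which 1 (Rttn) was among the 6, and 2 lower. At 30 or more counts 2 circles had a smaller share of their host. The difference in circles detected at equal depth (occipital minus frontal) turned to -18.97 at 2 or more counts.

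Ratios that crossed 1 were those of Tulp4 (0.993) and Gigyf2 (0.959) with TMM or DESeq2 factors, Bcl11b at 107989830 (1.18 with the GC trend removed), and, without their most abundant circle, the hosts Zfp532 (0.872) and Stx6 (1.03). Zdhhc21 (0.684), Pcmtd1 (0.548) and Mapk4 (1.37) did so too, on 3 to 9 counts over both cores. Apart from fewer circles or genes tested, the causes were not tested.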
